A study of Mus musculus with 4 samples.

Results

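The genes described here are 44 genes of mitosis: the cyclins and kinases that drive entry into division, the kinetochore and checkpoint proteins that hold chromosomes to the spindle, the motors and crosslinkers of the spindle and midzone, and the condensins that compact chromosomes. A gene was measured through probe sets that the array annotation gives to its symbol alone, and by the brightest of them. This rule found 43 of the 44 among 18194 genes, and no such probe set was listed for Ccnb1. The 43 genes had 93 probe sets in all, and the brightest one lay above the control level of the array, the highest of 27 bacterial control probe sets, on all 4 arrays for each of the 43.

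Expression was measured on 4 Affymetrix arrays, with cells that flow sorting had taken from kidneys of chimeric mouse embryos (day 15.5). The kidneys grew from wildtype blastocysts injected with 3 to 5 embryonic stem cells, GFP-positive and without either allele of Tfrc, the gene of transferrin receptor 1. The groups were GFP-positive Tfrc-/- cells on 2 arrays, and GFP-negative wildtype cells of the host on the other 2. The labels call the arrays of a group biological replicates and do not say which embryos, or how many, gave each one, so p-values measure only the spread between these arrays. The sources used here do not give the stem cell line or the number of its clones, and no array holds donor cells with Tfrc intact, so Tfrc loss and any other difference between donor and host cannot be told apart.

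Tfrc signal did not separate the groups in the labelled direction. Its brightest probe set read 1759 and 2348 in wildtype and 2509 and 3175 in labelled Tfrc-null cells, and the other 2 also had higher means there. Which exons were deleted is unknown here, so these probe sets may lie outside the deletion and then check nothing. Each direction below rests on the label, and the group is called labelled Tfrc-null. Genes of kidney lineages were present on all arrays, among them Six2 of nephron progenitors (80.6 to 142), Wt1 of progenitors and podocytes (666 to 1284) and Hnf4a of proximal tubule (1331 to 1488). Values are linear intensities throughout, and levels of different genes are not compared, because probe sets differ in how brightly they bind.

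Cells copy their chromosomes in S phase and part them in mitosis. Cyclin-bound CDK1 and the polo and Aurora kinases start mitosis, the spindle checkpoint delays it until every kinetochore is attached, and the anaphase-promoting complex, a ubiquitin ligase also written APC/C, then marks securin and the cyclins for destruction so that sister chromatids separate. The messages of these genes are made mostly in G2 and mitosis, so in a tissue they follow the share of cells that are dividing. In the embryonic kidney at this age the progenitors of cap mesenchyme, the tips of the ureteric bud and the stroma all divide. In sorted bulk cells, fewer dividing cells and less message per dividing cell cannot be told apart.

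The promoters of these genes share letters that the choice of genes did not use. In the RefSeq promoter table (GRCm38.p6), 37 of the 44 genes had 39 windows, each 300 bases long and reaching from 250 bases before the start site to 50 after it. The cell cycle genes homology region, or CHR, is the element bound by the DREAM and MuvB complexes, and the CCAAT box is bound by NF-Y. A CHR match (TTTGAA or TTCGAA, either strand) was found in 31 of 39 windows (79.5%), against 19.2% of all 32851 windows of the table. A CCAAT box (CCAAT, either strand) was in 29 windows (74.4%, against 37.4%), and both elements together were in 27 (69.2%, against 7.53%). The letters GGCGGG, a form of the cell cycle-dependent element that is also common in GC-rich promoters, were in 30 windows (76.9%, against 35.3%). An E2F-like element (TTTCGCGC or TTTGGCGC, either strand) was in 2, those of Cdk1 and Kif15 (5.13%, against 0.813%). A TATA box (TATAAA, either strand), searched after the other motifs had been counted, was in 1 window, that of Kif2c (2.56%, against 13.6%). Of 44 CHR matches, 30 lay within 50 bases of the start site, and 60 of 62 CCAAT matches lay upstream of it. Ect2 and Prc1 have 2 overlapping windows each, so their shared matches are counted in both. Positions were not counted over all windows. Matches of different motifs overlapped in 1 place. A match is a description of letters, not a measured binding site.

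**Figure D1:**
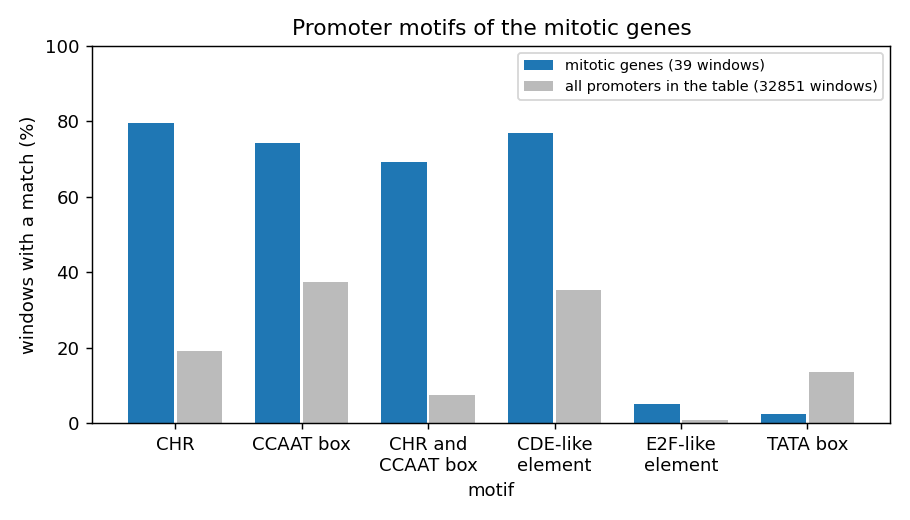
Bars give the percent of 300-base promoter windows with at least 1 match to each motif on either strand, for 39 windows of the mitotic genes (blue) and all 32851 windows of the RefSeq table (grey). CHR and CCAAT together stand at 69.2% of the mitotic windows and 7.53% of all windows, and the TATA box at 2.56% and 13.6%.

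The windows below belong to the gene with the highest difference between the groups (Pttg1), the kinase with the highest (Ttk), the central mitotic kinase (Cdk1) and the gene with the lowest difference (Nuf2); these 4 were chosen after their values were seen. Capitals mark CHR, CCAAT and GGCGGG matches on either strand, and each sequence runs 5′ to 3′ along the gene's strand.
Cdk1, chr10:69352863-69353162, minus strand: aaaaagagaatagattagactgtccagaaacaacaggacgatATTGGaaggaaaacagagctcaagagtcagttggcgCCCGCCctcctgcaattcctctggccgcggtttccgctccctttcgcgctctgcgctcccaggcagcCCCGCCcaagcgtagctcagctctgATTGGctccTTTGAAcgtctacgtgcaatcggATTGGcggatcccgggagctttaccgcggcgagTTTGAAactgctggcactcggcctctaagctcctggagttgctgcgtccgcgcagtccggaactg
Ttk, chr9:83834439-83834738, plus strand: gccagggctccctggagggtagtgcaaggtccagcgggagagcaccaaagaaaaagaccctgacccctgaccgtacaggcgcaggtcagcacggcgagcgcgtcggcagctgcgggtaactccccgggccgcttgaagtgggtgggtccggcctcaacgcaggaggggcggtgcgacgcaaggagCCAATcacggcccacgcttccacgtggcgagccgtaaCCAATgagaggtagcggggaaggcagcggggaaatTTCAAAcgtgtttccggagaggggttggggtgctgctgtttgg
Pttg1, chr11:43425932-43426231, minus strand: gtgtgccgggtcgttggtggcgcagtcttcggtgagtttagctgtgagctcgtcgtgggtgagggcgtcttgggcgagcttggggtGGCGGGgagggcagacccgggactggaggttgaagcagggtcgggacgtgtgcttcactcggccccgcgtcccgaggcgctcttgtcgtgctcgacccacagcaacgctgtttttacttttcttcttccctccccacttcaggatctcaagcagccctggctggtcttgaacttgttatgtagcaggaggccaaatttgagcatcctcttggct
Nuf2, chr1:169531415-169531714, minus strand: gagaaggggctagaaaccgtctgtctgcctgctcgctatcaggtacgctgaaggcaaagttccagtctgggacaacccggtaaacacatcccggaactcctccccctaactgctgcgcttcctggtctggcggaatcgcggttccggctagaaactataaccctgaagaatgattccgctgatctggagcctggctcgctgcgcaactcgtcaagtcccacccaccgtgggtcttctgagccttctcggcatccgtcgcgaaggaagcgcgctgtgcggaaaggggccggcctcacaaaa
The Cdk1 window holds 2 CHR matches, starting at -71 and -15 from the start site, beside an E2F-like match at -131 that is not capitalised, with CCAAT matches on the reverse strand at -208, -80 and -48. The Ttk window holds CCAAT boxes at -65 and -28 and a CHR match at 8. The Pttg1 window holds a single GGCGGG, at -164, and no motif searched is in the Nuf2 window. Of the 36 measured genes with a window, the 25 that hold both CHR and CCAAT had a median log2 difference between the groups of 0.17 (-0.34 to 0.63), and the 11 that do not had 0.25 (-0.42 to 1.09). The gene with the highest difference and the gene with the lowest are both among the 6 whose window has neither element, with Birc5, Mad2l1, Ncaph and Nusap1.

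Across the 43 genes, mean log2 signal was slightly higher on the labelled Tfrc-null arrays for 38 and lower for 5, with a median log2 difference of 0.17 beside 0.04 over all 18194 genes tested. The middle of the distribution ran from 0.06 to 0.33 (quartiles), and the extremes were Pttg1 at 1.09 and Nuf2 at -0.42. With limma and Benjamini-Hochberg adjustment over all genes, 0 of 43 passed 0.05, where 0.0% of all genes passed. By limma without adjustment, p was under 0.05 for Pttg1 alone, 1 gene higher (where 4.03% of all genes were called) and 0 lower (where 3.98% were), 8.02% of all genes in either direction. Both labelled Tfrc-null arrays lay above both wildtype arrays for 16 of 43 genes (37.2%), where 20.6% of all genes did, and below both for 4 (9.30%), where 14.3% did. Of all genes, 57.5% had a higher mean on the labelled Tfrc-null arrays. With 2 arrays against 2, an exact two-sided permutation test of a single gene cannot go below 0.333.

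The size of this shift changed with the arrays included. Wildtype replicate 2 was the lowest of the 4 arrays for 31 of 43 genes. Wildtype replicate 1 was the highest for 12, labelled Tfrc-null replicate 1 for 17 and labelled Tfrc-null replicate 2 for 11. Mean log2 signal of the 43 genes, each centred on its own mean, was 0.04 and -0.24 in wildtype and 0.18 and 0.01 in labelled Tfrc-null cells, so the labelled Tfrc-null arrays did not both lie above the wildtype arrays. Without wildtype replicate 2 the median difference was 0.018, below the 0.036 of all genes, with 24 of 43 genes higher, and without wildtype replicate 1 it was 0.33, with 37 higher. It was 0.08 without labelled Tfrc-null replicate 1 (27 higher) and 0.28 without replicate 2 of that group (36 higher). With the medians of genes above the control level set equal on the 4 arrays, a scaling added after the data were seen, the median was 0.10 and 32 genes were higher, and the median over all genes was then -0.02.

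**Figure D2:**
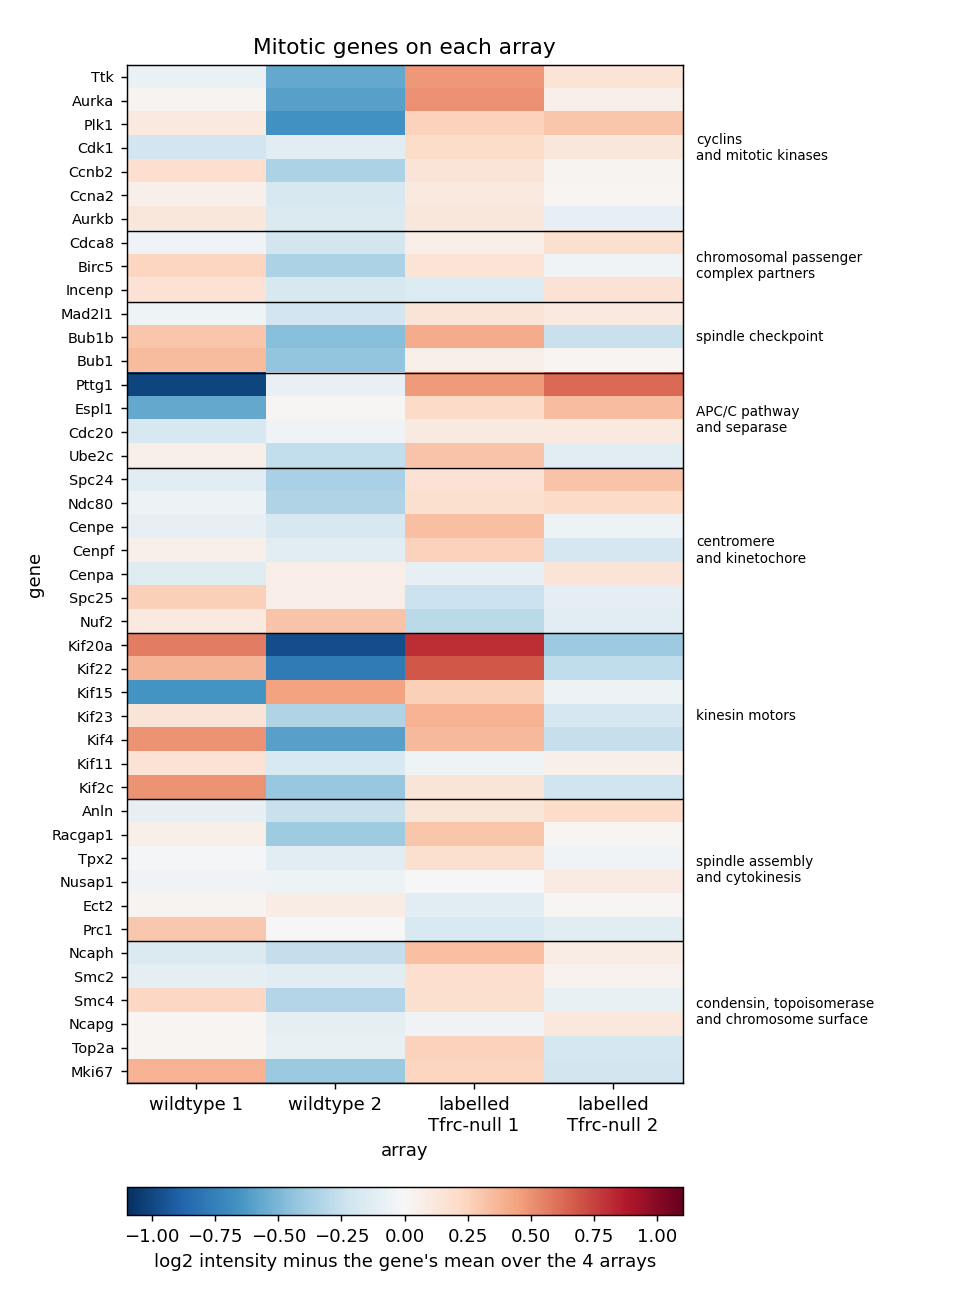
Each row is a mitotic gene and each column an array, coloured by log2 intensity minus the gene's mean over the 4 arrays, with genes grouped by role and ordered by the difference between groups. The column of wildtype replicate 2 is the lowest for 31 of 43 genes. The rows of Pttg1 and Espl1 are among 6 with their lowest value on wildtype replicate 1.

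Among cyclins and mitotic kinases, all 7 measured genes had a higher mean on the labelled Tfrc-null arrays, 4 of them without overlap (57.1%, background 20.6%), although Aurkb was lower with quantile normalization and with medians set equal. Ttk, the checkpoint kinase also called Mps1, read 305 and 217 in wildtype and 446 and 357 in labelled Tfrc-null cells, means of 261 ± 61.8 and 401 ± 63.5 (SD, n = 2 each). Both labelled Tfrc-null arrays lay above both wildtype arrays, with a log2 difference of 0.63 (SE 0.25, limma adjusted p = 0.631). Aurka, the Aurora kinase of the spindle poles, read 176 and 114 in wildtype and 245 and 179.9 in labelled Tfrc-null cells. Its groups were apart by a narrow margin, 176 against 179.9, and the log2 difference was 0.56 (SE 0.30). Leaving out wildtype replicate 2 gave 0.39 for Ttk and 0.25 for Aurka, and leaving out wildtype replicate 1 gave 0.88 and 0.87. Plk1, the polo kinase of centrosomes and kinetochores, read 183 and 108 in wildtype and 204 and 209.8 in labelled Tfrc-null cells. Its difference came to 0.15 within replicate 1 and 0.96 within replicate 2, and to 0.17 without wildtype replicate 2 and 0.94 without wildtype replicate 1. Cdk1, the kinase that drives mitotic entry, read 1145 and 1219.9 in wildtype and 1516 and 1437 in labelled Tfrc-null cells. The spread within each of its groups was small (1182 ± 53.3 and 1477 ± 55.8, SD, n = 2), the groups did not overlap, and they differed by 0.32 on the log2 scale (SE 0.18, limma adjusted p = 0.780).

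The cyclins and the Aurora kinase of the centromere overlapped between the groups by their brightest probe sets. Ccna2, the cyclin of S phase and G2, read 1911 and 1625 in wildtype and 1978 and 1861 in labelled Tfrc-null cells. Its second probe set read 589 and 536 against 818 and 688, higher without overlap (0.42). Ccnb2, a mitotic cyclin, read 693 and 479 against 671 and 622 and overlapped too. Aurkb read 283 and 232 in wildtype and 282 and 243 in labelled Tfrc-null cells, a log2 difference of 0.03 (SE 0.21), and its second probe set was lower without overlap (-0.39).

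Aurkb works in the chromosomal passenger complex, which corrects faulty attachments, and its 3 partners gave differences of 0.25 or less. Cdca8, or borealin, read 1765 and 1573 in wildtype and 1905 and 2049 in labelled Tfrc-null cells. It was the one partner whose groups did not overlap, and both of its other probe sets were also higher without overlap, by 0.42 and 0.27. Birc5, or survivin, read 3094 and 2058 in wildtype and 2900.2 and 2554 in labelled Tfrc-null cells. The scaffold Incenp read 3966 and 3147 against 3196 and 3963, so its arrays formed 2 like pairs across the groups and the log2 difference was 0.01 (SE 0.23).

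Ttk aside, the spindle checkpoint genes had log2 differences of 0.09 to 0.25 by their brightest probe sets. Mad2l1, the inhibitor of the anaphase-promoting complex, read 398 and 356 in wildtype and 452 and 443 in labelled Tfrc-null cells, without overlap. Bub1b, or BubR1, read 450.3 and 262 in wildtype and 483 and 307 in labelled Tfrc-null cells. The kinase Bub1 read 492 and 285 against 402 and 392. By the brightest probe set of each Bub gene, the wildtype arrays were further apart than the groups.

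Securin and separase, the pair that controls the release of sister chromatids, were 2 of the genes with the highest differences. Pttg1, which encodes securin, read 1279.5 and 2434 in wildtype and 3565 and 3956 in labelled Tfrc-null cells, means of 1857 ± 816 and 3761 ± 276 (SD, n = 2 each). The groups were clearly apart, a 2.13-fold difference of geometric means (log2 difference 1.09, SE 0.34, limma adjusted p = 0.496), although the wildtype arrays differed among themselves nearly as much. Between arrays of the same number the difference was 1.48 and 0.70, and it was 0.63, under 2-fold, without wildtype replicate 1 and 1.55 without wildtype replicate 2. The other 2 Pttg1 probe sets read 303 and 584 against 1093 and 1217, and 29.3 and 40.8 against 62.3 and 64.2, log2 differences of 1.45 and 0.87. All 3 probe sets separated the groups, with wildtype replicate 1 the lowest array in each. Pttg1 was the one mitotic gene of the 43 with at least a 2-fold difference and no overlap, where 1.15% of all genes were so placed in the higher direction and 1.51% in the lower. Espl1, which encodes separase, read 85.0 and 127 in wildtype and 146 and 159 in labelled Tfrc-null cells. It too had its lowest value on wildtype replicate 1 and did not overlap (log2 difference 0.55, SE 0.25, limma adjusted p = 0.698), and the difference was 0.26 without that array and 0.84 without wildtype replicate 2.

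By their brightest probe sets, differences were smaller for Cdc20 and Ube2c, which act with the anaphase-promoting complex. Cdc20, its mitotic activator, read 825 and 909 in wildtype and 1001 and 1004 in labelled Tfrc-null cells by the brightest probe set. A second Cdc20 probe set read 512 and 169 against 463 and 217 and overlapped, and another read 182 and 149.9 against 117 and 131, lower without overlap. The 3 probe sets of Cdc20 thus gave log2 differences of 0.21, 0.11 and -0.42. Ube2c, the ubiquitin-conjugating enzyme of the complex, read 1251 and 989 in wildtype and 1485 and 1103 in labelled Tfrc-null cells, which overlap.

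The NDC80 complex, the 4-subunit rod that grips microtubules at the kinetochore, was split. Ndc80 itself read 163 and 134 in wildtype and 191 and 195 in labelled Tfrc-null cells, and Spc24 read 413 and 349 against 498 and 557. Both were higher without overlap, with log2 differences of 0.39 (SE 0.20) and 0.47 (SE 0.20). Nuf2, the partner of Ndc80 at the outer end of the rod, read 375 and 432 in wildtype and 282 and 319 in labelled Tfrc-null cells. Spc25, the partner of Spc24 at the inner end, read 664 and 584 against 469 and 517. Both were lower without overlap, with log2 differences of -0.42 (SE 0.20, limma adjusted p = 0.698) and -0.34 (SE 0.19, limma adjusted p = 0.781). By the brightest probe sets, each dimer thus had 1 subunit higher and 1 lower, and none of the 4 differences passed the threshold. Of all genes, 20.6% were higher without overlap and 14.3% lower. Nuf2 was the more even across arrays, at -0.41 within replicate 1 and -0.44 within replicate 2. Spc25 has a dimmer second probe set that read 22.1 and 13.3 against 23.0 and 20.7, which overlap, with a difference of 0.35.

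The other genes of the centromere had differences from 0.05 to 0.27. Cenpe, the kinesin that carries chromosomes to the spindle equator, read 383 and 361 in wildtype and 514 and 392 in labelled Tfrc-null cells. Cenpf, a large kinetochore and nuclear matrix protein, read 197 and 173 against 225 and 165. Cenpa, the histone H3 variant that marks centromeres, read 571 and 659 in wildtype and 587 and 692 in labelled Tfrc-null cells. Cenpe alone of these did not overlap, by 383 against 392, and its second probe set was lower without overlap (-0.31).

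**Figure D3:**
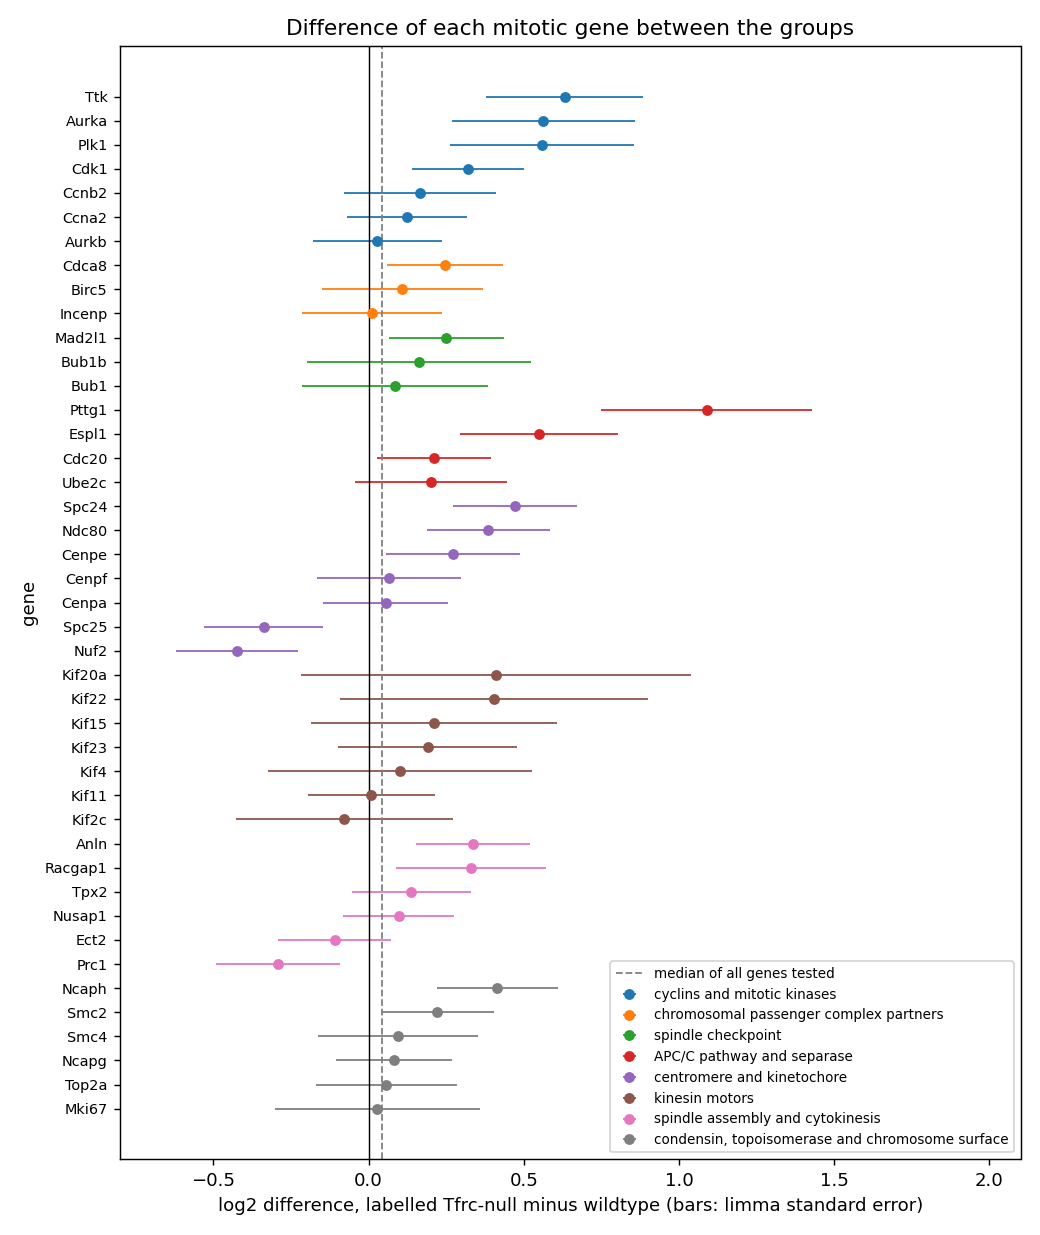
Points give the log2 difference of each mitotic gene, labelled Tfrc-null minus wildtype, with the limma standard error as a bar and colours for roles; the dashed line is the median of all genes tested, 0.04. Pttg1 stands furthest to the right at 1.09, and Nuf2, Spc25 and Prc1 stand furthest to the left at -0.42, -0.34 and -0.29.

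The 7 genes grouped here as kinesins are those with Kif symbols, and each differed more between arrays numbered 1 and 2 than between groups, as 56.1% of all genes did. The kinetochore kinesin Cenpe, described above, went the other way, with 0.24 between numbers and 0.27 between groups. Kif20a, the motor of the central spindle, read 311 and 107 in wildtype and 369.8 and 159.6 in labelled Tfrc-null cells. Kif22, the chromokinesin also called Kid, read 516 and 233 against 641 and 328. In both genes each array numbered 1 was above each array numbered 2, by 1.37 and 1.06 on the log2 scale, and the group differences were 0.41 (SE 0.63) and 0.40 (SE 0.50). Kif4, a chromokinesin that helps shape chromosomes and the midzone, read 200.3 and 93.7 in wildtype and 182 and 119 in labelled Tfrc-null cells. Kif2c, the microtubule depolymerase MCAK, read 257 and 137 against 202 and 156, a group difference of -0.08. Kif23, the midzone motor of centralspindlin, read 579 and 416 against 681 and 459.9. Kif11, the motor that pushes spindle poles apart, read 435 and 349 against 378 and 407, and its group means were equal at 392. Kif15, which shares that task, lay near the control level on all arrays (8.24 and 17.7 against 15.6 and 12.5). By the brightest probe sets of these 7, 0 were higher without overlap, where 20.6% of all genes were, and 0 lower, where 14.3% were. A dimmer probe set of Kif23 and another of Kif11 were higher without overlap (0.40 and 0.22). The remaining probe sets of the 7 overlapped. Cenpe was higher without overlap, as were Kif18b, Kif14 and Kifc1 (0.89, 0.84 and 0.55) among 6 further kinesins outside the 44. Of these, Kifc1 is named after its values were seen. Kif14 was dim, at 10.4 and 12.3 in wildtype, near the control level, and 14.8 and 28.0 in labelled Tfrc-null cells.

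Among genes of spindle assembly and cytokinesis, 2 of 6 were higher without overlap (background 20.6%) and 2 lower (background 14.3%). Anln, the anillin scaffold of the cleavage furrow, read 212 and 190.4 in wildtype and 248 and 259 in labelled Tfrc-null cells. Nusap1, which bundles spindle microtubules, read 1433 and 1414 against 1479 and 1566, a small difference of 0.10. Prc1, the crosslinker of the midzone, read 2302 and 1866 in wildtype and 1664 and 1722 in labelled Tfrc-null cells, lower by both arrays (log2 difference -0.29, SE 0.20). The second Prc1 probe set read 2060 and 1704 against 1728 and 1539, which overlap (-0.20). Ect2, the exchange factor that activates RhoA at the furrow, read 975 and 1014 against 881 and 963 (-0.11). The 2 lower genes and centralspindlin work together at the midzone. Racgap1, a centralspindlin subunit, had a higher mean (456 and 334 against 541 and 445) but overlapped by its brightest probe set. Its second probe set read 116 and 97.4 against 140 and 162, higher without overlap (0.50). Tpx2, the activator of Aurora A at the spindle, read 1668 and 1538 against 1896 and 1637 and overlapped as well. A second Tpx2 probe set read 607 and 424 against 698 and 639, higher without overlap (0.40).

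Condensin and chromosome surface genes had higher mean log2 signal in all 6 cases, by 0.03 to 0.41, although Mki67 and Top2a were lower with medians set equal. Ncaph, the kleisin of condensin I, read 257 and 239 in wildtype and 359 and 303 in labelled Tfrc-null cells. Smc2, the ATPase shared by both condensins, read 762 and 754 against 928 and 841. By their brightest probe sets both were higher without overlap (2 of 6 genes, 33.3%, background 20.6%, with 0 lower, background 14.3%). Their partners Smc4 (1008 and 689 against 974 and 813) and Ncapg (1532 and 1404 against 1471 and 1636) overlapped. The second Ncapg probe set read 82.7 and 75.8 against 107 and 96.4, higher without overlap (0.36), and the second Ncaph probe set overlapped (0.24). Of the further Smc2 probe sets some overlapped and some did not, and those of Smc4 overlapped. Markers often used to count dividing cells overlapped too by their brightest probe sets. Mki67, the surfactant of mitotic chromosomes, read 1806 and 1042 in wildtype and 1629 and 1201 in labelled Tfrc-null cells, a log2 difference of 0.03 (SE 0.33); its linear means were 1424 and 1415. Top2a, the topoisomerase that untangles sister chromatids, read 1566 and 1459 against 1835 and 1348 (log2 difference 0.06, SE 0.23). Its dimmer second probe set was higher without overlap (0.33).

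Many mitotic genes differed between replicate numbers by as much as between the groups, and so did many of all genes. Both arrays numbered 1 lay above both arrays numbered 2 for 18 of 43 genes (41.9%), where 23.8% of all genes did, and the reverse held for 1 gene, Cenpa, where 22.8% of all genes did. The median difference of arrays numbered 1 minus arrays numbered 2 was 0.16 over the 43 genes and -0.003 over all genes. For 22 of 43 genes (51.2%) this difference was larger than that between the groups, as for 56.1% of all genes. Within replicate 1 the labelled Tfrc-null array was the higher for 28 genes, within replicate 2 for 36, and within both for 25 (58.1%), where 36.8% of all genes were higher within both. Measures of the arrays themselves went with the number: the BioB hybridization control read 5350.1 and 5780.2 on arrays numbered 1 and 3760 and 4068 on arrays numbered 2, and the 3′ to 5′ signal ratio of beta-actin was 5.51 and 5.89 against 6.49 and 7.21. Their part in the result was not tested. Probe sets of one gene could differ in it: the Cdc20 probe set that read 512 and 169 on the wildtype arrays had a number difference of 1.35, and the brightest one -0.07. For Kif22, the 3 probe sets had 1.06, 1.45 and -0.16.

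**Figure D4:**
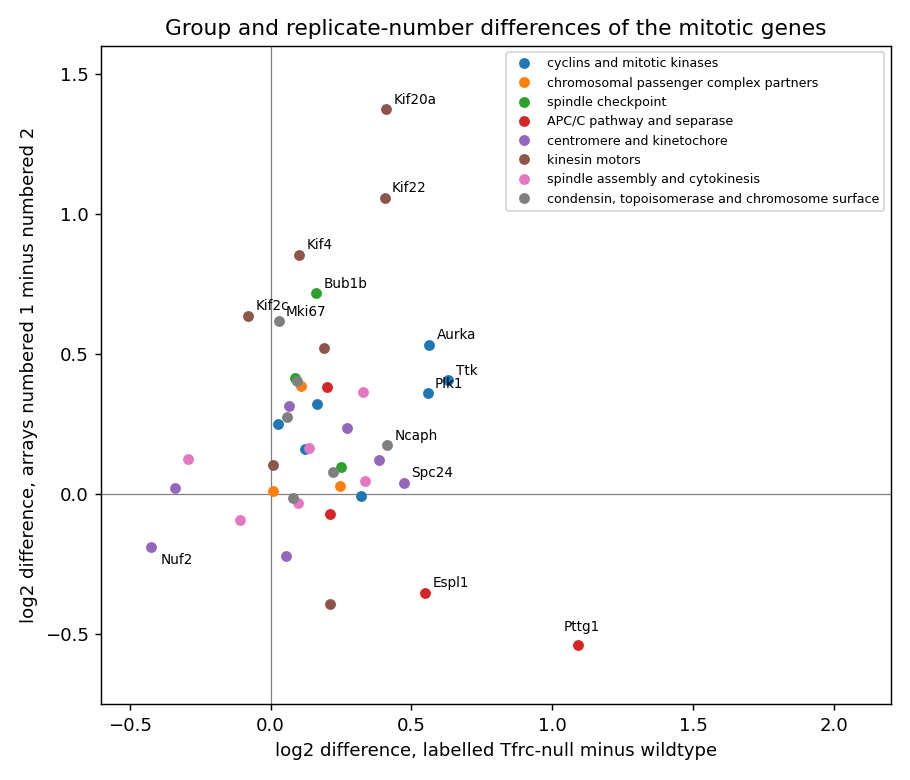
Each point is a mitotic gene, with the log2 difference between groups (labelled Tfrc-null minus wildtype) on the horizontal axis and that between arrays numbered 1 and numbered 2 on the vertical axis. Kif20a and Kif22 stand at the top at 1.37 and 1.06, and Pttg1 at the lower right at 1.09 and -0.54.

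Other probe sets of the same genes did not always repeat the brightest. Of 42 further probe sets above the control level on all arrays, in 26 genes, 28 had the sign of the brightest one and 14 the opposite sign. The 42 had a median difference of 0.22, with 15 higher and 7 lower without overlap, where 20.6% and 14.3% of all genes were so placed by their brightest probe set. Large disagreements were found for Bub1, whose second probe set read 125 and 73.0 in wildtype and 42.5 and 35.6 in labelled Tfrc-null cells (-1.30, against 0.09 for the brightest). The second Nusap1 probe set read 45.7 and 97.4 against 29.3 and 26.7 (-1.26, against 0.10). Cenpa had one dim probe set that was lower without overlap (-1.71) and another that was higher without overlap (0.77). Which transcripts these probe sets bind was not examined. All 3 probe sets of Pttg1 and all 3 of Cdca8 were higher without overlap.

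Other genes of the cell cycle, listed with earlier results of these data known, had medians above and below that of all genes (0.04). Further centromere and kinetochore genes were higher in 27 of 30 with a median of 0.21, and 15 did not overlap (50.0%, background 20.6%); 0 passed the adjusted threshold and 4 an unadjusted p under 0.05, where 8.02% of all genes did. Those 4 were Oip5 and Cenpm, at 0.72 and 0.67, and Pmf1 and Knl1, at 0.55 and 0.59. Regulators of mitotic entry and exit were higher in 18 of 21 (median 0.21), with Nek2, Haspin and Pkmyt1 at 0.51, 0.88 and 0.55 and the phosphatase Cdc25b, which activates Cdk1, at -0.55. Further spindle and cytokinesis genes were higher in 17 of 23 (median 0.13), led by the kinesin Kif18b, which read 87.6 and 93.3 in wildtype and 153 and 184 in labelled Tfrc-null cells (log2 difference 0.89, SE 0.20, limma adjusted p = 0.309). Ckap2, Kif14 and Depdc1b stood at 0.63, 0.84 and 0.86, with Kif14 near the control level in wildtype.

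Condensin, cohesin and anaphase-promoting complex genes outside the 44 were higher in 21 of 29 (median 0.14). Cdc23, a scaffold subunit of that complex, read 751 and 651 in wildtype and 1541 and 1398 in labelled Tfrc-null cells, a log2 difference of 1.07 (SE 0.19, limma adjusted p = 0.224). Its arrays within a group lay close together, and of this list it alone had an unadjusted p under 0.05; Anapc7, Anapc13 and the cohesin regulator Pds5a stood at 0.39, 0.41 and -0.38. Genes of DNA replication and nucleotide supply, the S phase counterpart, were higher in 40 of 44 with a median of 0.25. Their median was 0.14 without wildtype replicate 2, where that of the mitotic genes was 0.018, and 0.28 without wildtype replicate 1. Gins2, Rfc4, Gins4 and Rfc5 of the replication fork stood at 0.67, 0.61, 0.53 and 0.40.

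Transcription factors of the cell cycle had a median of 0.06 (13 of 22 higher). E2f7, a repressor of the E2F family, read 371 and 310.5 in wildtype and 514 and 491 in labelled Tfrc-null cells (0.57), and E2f2, Rb1 and Rbl2 stood at -0.39, -0.31 and 0.40. Cyclins and kinases of G1 with the Myc genes were higher in 3 of 8 (median -0.08; Cdk6, Myc, Ccnd1 and Cdk4 at -0.42, -0.29, -0.21 and 0.11). Inhibitors of the cycle were higher in 4 of 12 (median -0.10), with the imprinted inhibitor Cdkn1c at -2.03 and Cdkn1b, Ccng2 and Ccng1 at -0.46, -0.41 and 0.31. In each of these lists 0 genes passed the adjusted threshold, as in the lists of mitosis and replication, and unadjusted p was under 0.05 for 3 of 21 genes of entry and exit, 2 of 23 of spindle and cytokinesis, 3 of 44 of replication, 1 of 22 transcription factors, 0 of 8 G1 genes and 1 of 12 inhibitors, where 8.02% of all genes were.

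**Figure D5:**
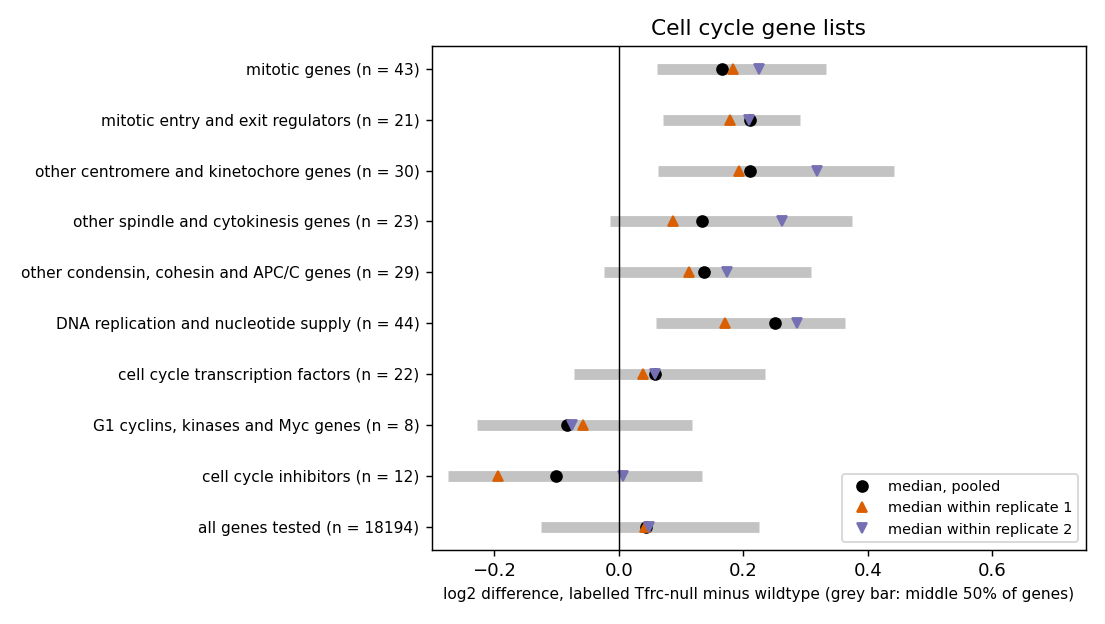
For each list, the black point is the median log2 difference (labelled Tfrc-null minus wildtype), the grey bar spans its quartiles, and triangles give the medians within replicate 1 and within replicate 2. The mitotic genes stand at 0.17 and the replication genes at 0.25, with all genes at 0.04 and the G1 genes and inhibitors at -0.08 and -0.10.

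Markers of cell types also differed between the groups. All 9 erythroid markers measured had lower means on the labelled Tfrc-null arrays, with a summed intensity of 77.5 to 103 there and 648.5 to 1963 on the wildtype arrays, and neither Epb42 nor Rhag exceeded the control level on any array. All 9 ureteric bud markers were lower (1330.3 to 1616 against 4387 to 5118), as were all 8 endothelial markers (2606 to 3078 against 4540 to 5285). Of 8 neutrophil markers 6 were lower (192 to 589 against 4733 to 8091), and Elane exceeded the control level on none. All 10 stromal markers were higher (15465 to 17018 against 9206 to 12491). Sums overlapped for proximal tubule (4 of 4 lower, 1835 to 1896 against 1849 to 2312), leukocytes (4 of 6 higher, 3507 to 3687 against 3409 to 3888) and podocytes (2 of 4 higher, 2179 to 2562 against 2467 to 2722). Cap mesenchyme was lower in 6 of 7 (1627 to 1944 against 2187 to 2618). Its median log2 difference was 0.05 within replicate 1, with 5 of 7 higher, and -0.82 within replicate 2, with 0 higher. Wildtype replicate 2, the lowest array for most mitotic genes, also had the higher erythroid and neutrophil sums of its group and the lower stromal sum. The part of these cell types in the mitotic result was not tested.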

How the data were processed

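Cells of chimeric kidneys were profiled on 4 arrays, 2 per group. Per the labels' protocols, sorting followed enzymatic dissociation, and biotin labelling used isothermal amplification from 50 ng of RNA. The values are linear probe set intensities as deposited by the authors. They come from RMA, per the submitters' processing notes, whose settings and step back from log2 are unstated. RMA equalises distributions across arrays, so a shift shared by most genes would be removed.

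Intensities were taken to log2 without further normalization. Of 45101 probe sets, 34958 had 1 gene symbol, 932 several and 9211 none in the platform annotation; each of 18194 genes was represented by its probe set of highest mean log2. Of these genes, 18032 were in the RefSeq table used to update symbols. Differences (labelled Tfrc-null minus wildtype) went through lmFit and eBayes without a block (limma 3.58.1, R 4.3.3), adjusted by Benjamini-Hochberg over all genes at 0.05, in a script tested on simulated data. The number of arrays limits the precision. Members, lists and tests were chosen with earlier results of these data known. All 44 members are named, with up to 4 genes of smallest p per other list, and other names were chosen after their values were seen. Alternatives were other probe set summaries, a filter, quantile normalization, log2(intensity + 16), an intensity trend, the replicate block, leaving out each array, and an added median scaling.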

Additional observations from a re-analysis of the deposited data

How the results depend on the processing

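No mitotic gene passed the adjusted threshold under any of the 11 alternatives. Over all genes, 0 passed as reported, and 1 passed with the mean of all probe sets of a gene, 2 with an intensity trend in limma and 2 with the replicate block, none of them a mitotic gene. Arrays of the same number deviated together (r = 0.549 across 13571 genes above the control level, 0.598 across the 43), but with 2 pairs and no word in the labels the numbers are not taken as pairs; under the block 7 of the 43 and 2691 of all 18194 genes had an unadjusted p under 0.05, against 1 and 1459 without it. The median of the 43 stayed above 0 throughout, from 0.018 to 0.33 with an array left out (0.018 without wildtype replicate 2, where the median of all genes was 0.036) and from 0.10 to 0.19 otherwise. Genes with a lower mean numbered 5, or 10 with the mean of all probe sets, 7 with quantile normalization, 11 with the medians of genes above the control level set equal, and 6 to 19 with an array left out. Genes without overlap were 4 lower (6 with the mean of all probe sets) and 16 higher (15 with medians set equal). With an array left out they were 4 to 14 lower and 18 to 35 higher, where a group of 1 separates more easily. The share of all genes without overlap was not counted with an array left out, so these ranges cannot be set against a background.

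Of the 43 genes, 20 kept their sign under all 11 alternatives. The sign turned with the mean of all probe sets for Cdc20 -0.033, Bub1 -0.61, Bub1b -0.14, Aurkb -0.18, Cenpa -0.30, Cenpe -0.020, Spc25 0.0053, Kif2c 0.0098, Nusap1 -0.58; with quantile normalization for Aurkb -0.0063, Kif11 -0.026; and with medians set equal for Mki67 -0.035, Top2a -0.0064, Aurkb -0.035, Incenp -0.053, Cenpa -0.0087, Kif11 -0.054. With an array left out, where the lone array is assumed to vary like the other group, the log2 difference ran across 0 for these genes: Mki67 -0.37 to 0.43, Top2a -0.17 to 0.28, Ccnb2 -0.10 to 0.43, Bub1 -0.31 to 0.48, Bub1b -0.23 to 0.55, Aurkb -0.11 to 0.17, Birc5 -0.18 to 0.40, Incenp -0.16 to 0.18, Cenpa -0.063 to 0.17, Cenpf -0.16 to 0.29, Kif11 -0.15 to 0.17, Kif15 -0.34 to 0.76, Kif20a -0.36 to 1.18, Kif22 -0.17 to 0.98, Kif23 -0.093 to 0.47, Kif2c -0.53 to 0.37, Kif4 -0.45 to 0.65, Smc4 -0.18 to 0.37, Ube2c -0.012 to 0.42. The causes were not tested.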

Other observations

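Genes outside the cell cycle lists were compared with the mean course of the 43 mitotic genes over the 4 arrays, by the root mean square distance of centred log2 values among 7822 genes above the control level whose values ranged over at least 0.5. The mean course itself ran only from -0.24 to 0.18, a range under 0.5, so genes with exactly that course were not compared. Among the genes compared, the closest 5 were Gcn1, Mrps18a, Mrpl40, Neurl4 and Scpep1, at distances of 0.03 to 0.04. Gcn1, the activator of the amino acid sensor kinase Gcn2, read 1030.4 and 834 in wildtype and 1181 and 1041 in labelled Tfrc-null cells. Mrps18a and Mrpl40, subunits of the mitochondrial ribosome, read 207 and 167 against 238 and 208, and 314 and 246 against 351 and 298. With 4 arrays many genes can share one course, and no likeness beyond these arrays is implied.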
